A study of Mus musculus with 8 samples.

Results

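The 4 RNA libraries labelled Erbb3f/f, from mouse uterine stromal cells at day 3, were described here as the baseline state of the control genotype, with no comparison against the other genotype. They were chosen by their genotype label and are 4 of the 8 libraries of the series. The other 4 libraries carry the label Erbb3d/d and the same cell type and day, and they were used only for the spread between libraries. The letter f usually stands for a floxed allele, which Cre can cut out, and d for the allele once it has been cut out. The labels give no strain, no age and no treatment, name no Cre line, do not say from which event day 3 was counted and do not say whether the cells were cultured. They also do not say whether each library came from 1 animal or from pooled animals, so the spread between libraries may be technical or biological. Erbb3 codes for a receptor of the epidermal growth factor receptor family that binds neuregulins and has a weak kinase domain of its own. Values are mean ± SD over the 4 libraries, and values of single libraries are given in the order of replicates 1 to 4.

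Uterine stroma is the connective tissue below the lining epithelium. Its fibroblasts lay down a collagen-rich matrix, respond to progesterone and oestrogen through nuclear receptors, and signal to the epithelium and glands through secreted growth factors. In mice the stromal cells differentiate into decidual cells when an embryo attaches. Preparations of such cells can also hold blood vessel cells, smooth muscle, leukocytes and epithelium, each of which has its own marker transcripts.

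The reference sequence just upstream of the start is shown for 4 genes, chosen as 1 abundant stromal gene, 2 genes that varied between libraries and the gene that varied least. They are Igfbp4, an insulin-like growth factor binding protein (chr11:99041124-99041243, + strand), Fos, an immediate early transcription factor (chr12:85473770-85473889, + strand), Il1b, an inflammatory cytokine of myeloid cells (chr2:129371140-129371259, - strand) and Msn, the membrane-to-actin linker moesin (chrX:96095925-96096044, + strand). The sequences are from RefSeq on GRCm38.p6, read 5′ to 3′ on the gene's strand and ending at the base before the annotated start. Capitals mark TATAAA within the last 50 bases and the GC box GGGCGG or its complement CCGCCC.
Igfbp4: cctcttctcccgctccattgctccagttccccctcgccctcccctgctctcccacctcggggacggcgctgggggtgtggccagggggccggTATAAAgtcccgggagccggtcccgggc
Fos: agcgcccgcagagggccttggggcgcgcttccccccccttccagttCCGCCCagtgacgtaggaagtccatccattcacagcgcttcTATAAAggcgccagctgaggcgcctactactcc
Il1b: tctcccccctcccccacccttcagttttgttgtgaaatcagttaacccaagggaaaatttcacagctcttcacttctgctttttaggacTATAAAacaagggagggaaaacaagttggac
Msn: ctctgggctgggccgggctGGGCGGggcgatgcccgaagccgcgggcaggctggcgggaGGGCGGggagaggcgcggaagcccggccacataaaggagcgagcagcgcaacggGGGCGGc
Igfbp4, Fos and Il1b hold TATAAA in these windows, and Msn holds 3 GC boxes and no TATAAA.

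The same letters were searched in all 16375 promoters whose symbols matched the count tables, and GGGCGG was in 43.6% and TATAAA in 3.35% of them, so the 3 windows with TATAAA are not typical. Of 25 immediate early promoters 20 held GGGCGG and 1 TATAAA, and of 77 promoters among the 100 most abundant genes 41 and 5 did. TGACGTCA, searched on either strand in the 250 bases, was in 2.05% of all promoters and in 2 of the 25. GGGCGG on either strand in the 250 bases before the start was found in 60.3% of 9222 promoters of genes with a mean of at least 5 CPM (reads of the gene per 1000000 reads in genes). It was found in 33.8% of 136 promoters among the 200 genes that varied most between libraries, and in 65.6% of 157 among the 200 that varied least. TATAAA on the gene's strand within 50 bases was found in 1.40%, 5.88% (8 promoters) and 1.27% (2 promoters) of the same 3 sets. A match is a description of these letters in this window and not evidence of a binding site.

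The files gave 8970073 to 12854367 reads in genes per library, which were 27.7% to 29.1% of all entries in each table. Between 48.3% and 50.8% of entries were assigned to no gene feature, a group that may include reads within genes, and 12.9% to 14.4% were not aligned. Each library had reads in 16686 to 16990 of 23420 genes, and 14555 genes had a mean of at least 1 CPM. Reads of Erbb3 (chr10:128567523-128589652, - strand, GRCm38) numbered 76, 101, 105 and 109, or 7.47, 10.7, 8.17 and 12.2 CPM, so the gene was detected in every library and at a low level. Its relatives Egfr and Erbb2 stood at 47.26 ± 12.05 TPM (reads scaled to exon length and to the library total) and 23.3 ± 4.21 TPM, against 6.64 ± 1.58 TPM for Erbb3. Erbb4 had no read in any of the 4 libraries.

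Some gene groups lay mostly highest or lowest in a single library, and this bears on the results that follow. Replicate 1 had the highest levels of 56 of 75 ribosomal protein genes. Replicate 4 had the highest summed level of stratified squamous epithelium genes, replicate 3 had the highest levels of 20 of 22 macrophage and lysosome genes, and replicate 2 had the lowest levels of 26 of 28 immediate early genes. The squamous and macrophage lists were made after values were seen, so their part of this is a description only. The label of stromal cells was set beside markers. All 25 stromal markers were detected at a mean of at least 1 CPM, with 2.30% of all TPM, and 24 of 25 epithelial markers were detected with 0.364%. Over all symbols 14555 of 23420 were detected by this rule, and counts of detected members here and below stand beside that share. Detection alone does not tell these cell types apart, since nearly all markers of each were detected. Markers of immune cells (27 of 28 detected), smooth muscle (16 of 16), endothelium (19 of 19) and pericytes (9 of 9) made up 0.907%, 0.286%, 0.0816% and 0.0645% of TPM. Anpep alone held 66.5% of the pericyte sum. In bulk RNA, fewer cells of a type and less RNA per cell cannot be told apart.

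For several other lineages part of the marker list had no reads. Sox10 and Foxd3 of Schwann and neural crest cells had no read in any library, nor did Adipoq and Lep of fat cells. The lists were not empty, since 4 of 12 neural and Schwann markers were detected (summed TPM 161, 211, 198 and 219, of which the neurotrophin receptor Ngfr held 80.5%) and 3 of 10 adipocyte markers (summed TPM 48.8, 44.4, 72.8 and 69.9, of which the lipase Lpl held 88.0%). Pou5f1, Cdx2, Prl3d1, Gcm1 and Hand1 of the embryo and trophoblast were at 0, while 3 of 12 of that list were detected and the epithelial keratin Krt8 held 95.2% of its TPM. All 6 Y-linked genes were at 0 too. Hba-a1 and Hba-a2 of red blood cells were listed at 0, but these are near-identical copies whose reads may align to both, and reads with more than 1 alignment were kept apart in the tables. Alas2, the erythroid enzyme of haem synthesis, had 2.36, 0.953, 1.01 and 2.45 CPM.

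Per length, the most abundant message among the genes counted was Eef1a1, the elongation factor that carries aminoacyl-tRNA to the ribosome, at 8301 ± 688 TPM. Apoe, a lipid carrier of macrophages and other cells, followed at 5253 ± 1927 TPM, and Tmsb4x, the actin monomer binder thymosin beta 4, at 4733 ± 536 TPM. B2m, the light chain of class I histocompatibility molecules, reached 4685 ± 935 TPM and the ribosomal protein gene Rplp1 4610.2 ± 689.9 TPM. The means from Apoe to Rplp1 lay within 1 SD of each other, so their order is not set by these libraries. In single libraries Eef1a1 ranked 1 or 2, and in replicate 3 it lay below Apoe, whose TPM values were 5011, 3604, 8011 and 4387.

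Stromal products filled much of the rest of the 20 highest. Col6a1 and Col6a2, which code for chains of the beaded collagen VI filament around cells, stood at 4431 ± 883 TPM and 2636 ± 490.2 TPM. Serpinh1, the collagen chaperone HSP47 of the endoplasmic reticulum, reached 4199 ± 585 TPM. Igfbp4, which holds insulin-like growth factors away from their receptor, reached 4083 ± 518 TPM, with 3684, 3592, 4594 and 4461 TPM in the single libraries. Its relative Igfbp7 reached 2531 ± 250.1 TPM, though its exons overlap Polr2b on the other strand and these non-directional libraries cannot tell the strands apart. The remaining places went to the iron store Ftl1, the ribosomal Rpl41, the lysozyme Lyz2, the lysosomal protease Ctsd, Actb, Hsp90ab1, Ptma, Eef2, the small GTPase Rhob and the lysosomal Psap, between 2307 and 3756 TPM.

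**Figure D1:**
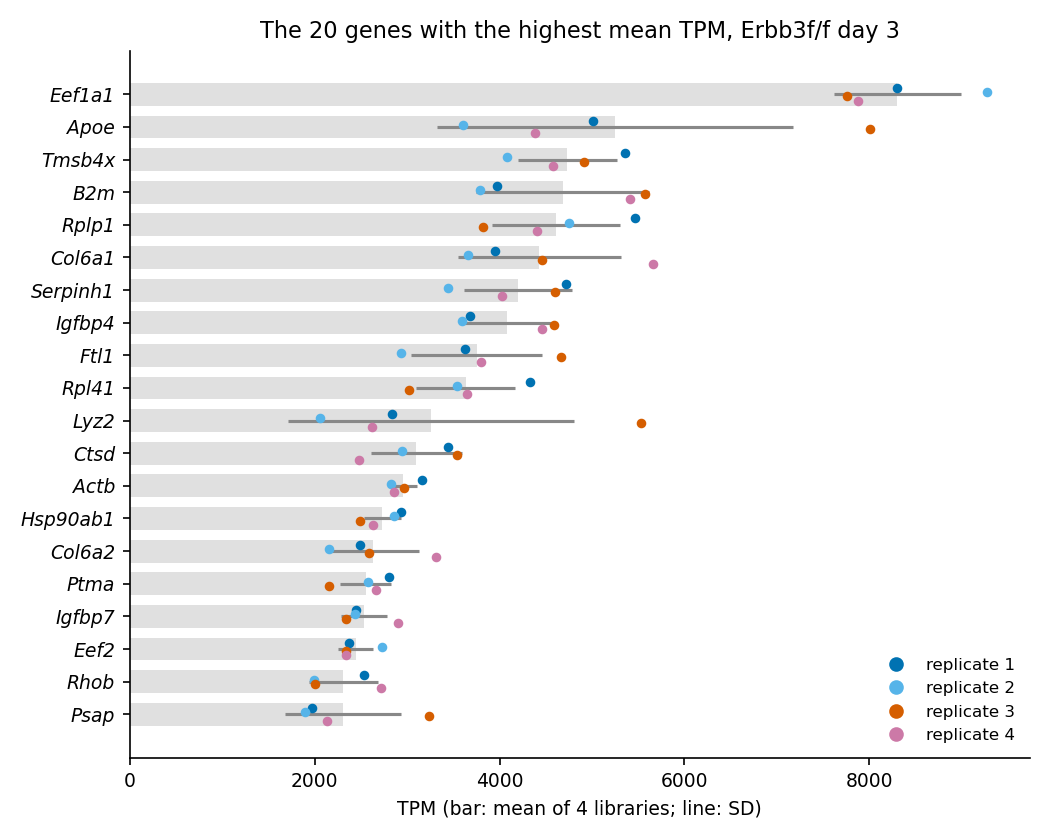
TPM of the 20 genes with the highest mean, with points for the 4 Erbb3f/f libraries, bars for the mean and lines for the SD. Replicate 3 lies farthest to the right for Apoe, Lyz2 and Psap, and replicate 4 for Col6a1 and Col6a2.

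By share of reads, without scaling to length, the order changed, and 10 of the 20 highest genes were shared between the orders. Rn45s, the 45S precursor of ribosomal RNA, took the most reads at 6690.0 ± 988 CPM. It has no length in the annotation used and so no TPM. Next came Col6a2 at 5306 ± 1017 CPM, Eef1a1 at 4994 ± 350.1 CPM, Col6a1 at 4689.9 ± 951 CPM and Igfbp4 at 4356 ± 570.2 CPM. The long noncoding RNAs Xist, which coats the inactive X chromosome, and Malat1, a nuclear speckle RNA, followed at 4319 ± 829 CPM and 3480.3 ± 977 CPM. Xist overlaps its antisense partner Tsix, so part of its reads may belong to either strand. Col3a1, Col1a1, Fn1, Nid1, Nedd4, Col1a2 and Col6a3 also held places among the 20 highest by reads. Among the genes counted, no single transcript dominated. The 10 genes with the most reads held 4.05% to 4.55% of reads, and 1339 to 1411 genes were needed to reach 50%. A search for mitochondrially encoded genes found none among the counted symbols, so these orders and shares leave them out.

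Functional classes were ranked by the summed TPM of their members, over 30 classes that together held 25.7% of all TPM. The sums also follow the number of members, which differed between classes. Mitochondrially encoded genes were not found among the counted symbols and are not ranked. Ribosomal protein genes ranked first in every library, with 38032, 34983, 29491 and 32910.3 TPM. The actin and microtubule cytoskeleton ranked second in every library at 22218 ± 1069. Matrix glycoproteins and elastic fibre proteins (17757 ± 495), translation factors (17707 ± 1180.1), immediate early genes (17389.5 ± 3163), matrix proteases with their inhibitors and crosslinking enzymes (15706 ± 1461) and collagens (15050.3 ± 2602) came next. The order of these 5 classes was not the same in every library, and immediate early genes ranged from 12936 TPM in replicate 2 to 20185 in replicate 1. By share of reads, collagens ranked first, at 2.64% of reads. At the lower end stood circadian clock genes (831 ± 71.0), histone genes of the replication clusters (765 ± 44.6) and EGF family ligands (70.5 ± 1.84).

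**Figure D2:**
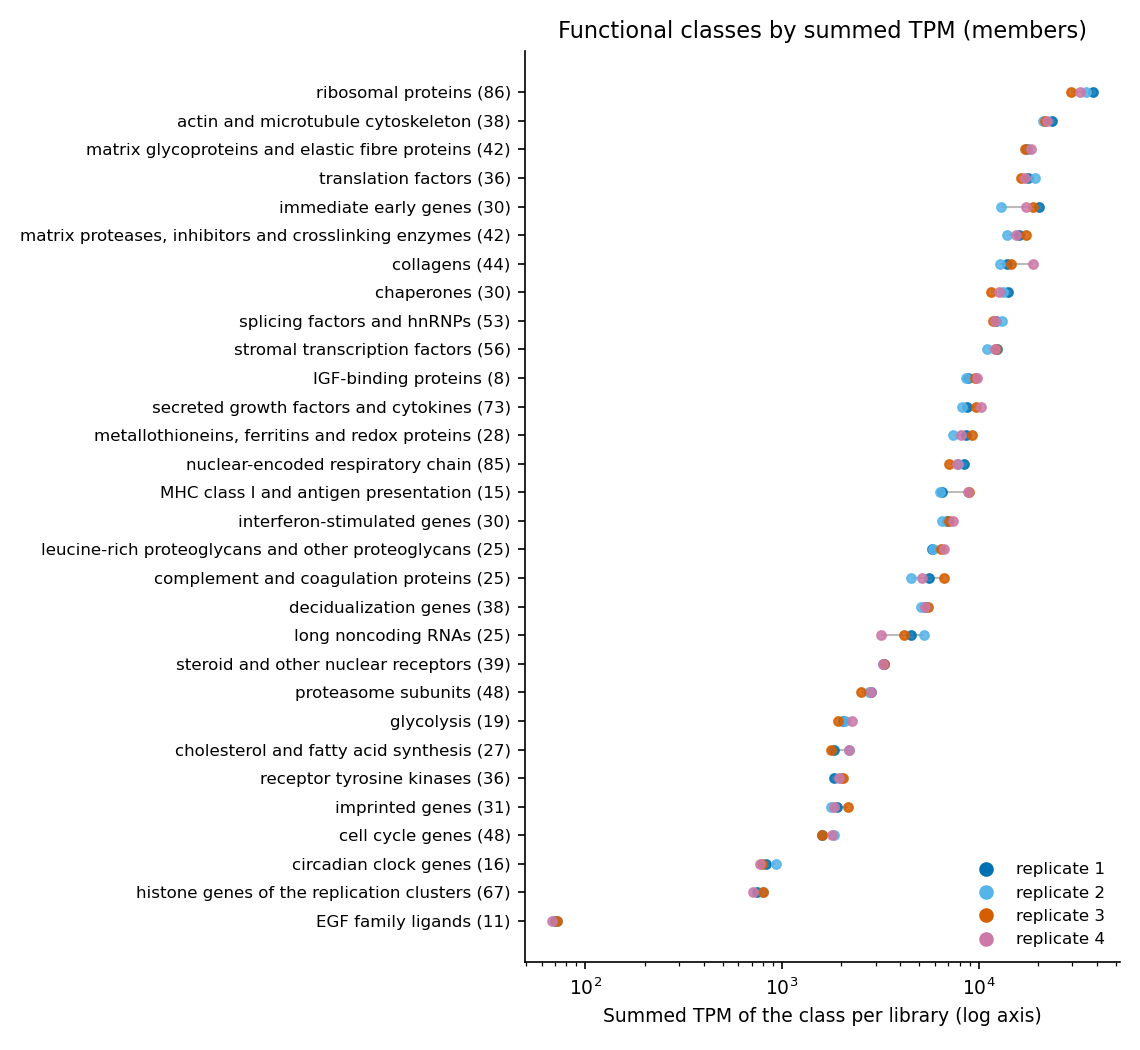
Summed TPM of each functional class in each of the 4 libraries on a log axis, with the number of members in the tables in brackets and a line from the lowest to the highest library. Ribosomal proteins lie at the top and EGF family ligands at the bottom in all 4 libraries, and the points of immediate early genes, collagens and long noncoding RNAs lie farther apart than those of most classes.

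The matrix classes rested on a few members. Of 44 collagen genes 39 were detected at a mean of at least 1 CPM, and Col6a1, Col6a2 and Col1a1 held 58.8% of the class. Col1a1, a chain of fibrillar collagen I, stood at 1789.8 ± 270.4 TPM and Col3a1 of collagen III at 1450.3 ± 146 TPM, each with no library more than 1.5-fold from another. Among proteoglycans the collagen-binding Lum (1593 ± 177 TPM) and Dcn (677 ± 55.5 TPM) led with Srgn, a granule proteoglycan of leukocytes (811 ± 191 TPM). The glycoprotein class was led, after Igfbp7, by Sparcl1 (1901 ± 191 TPM), the collagen-binding Sparc (1868 ± 228 TPM) and Dpt, or dermatopontin (1795 ± 139 TPM). Matrix remodelling genes included the gelatinase Mmp2 at 1451 ± 193 TPM and P4hb, a subunit of prolyl 4-hydroxylase, at 1271 ± 78.4 TPM.

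Other members of these classes differed more between libraries than the leaders did. Col6a5, another collagen VI chain, had 4.91, 4.66, 25.6 and 36.5 CPM and was high in replicates 3 and 4 only. Col6a4 had 949, 1019, 1299 and 2644 CPM and Col6a3 1527, 1334, 1501 and 2921, both highest in replicate 4. Col23a1, a membrane collagen, had 29.9, 26.0, 74.0 and 29.1 CPM with its high value in replicate 3. Tnc, the adhesion-modulating glycoprotein tenascin C, had 215, 276, 371 and 689 CPM, also highest in replicate 4. Postn had 110.4, 88.0, 41.8 and 65.6 CPM and Aspn 14.6, 15.7, 5.83 and 13.4, both lowest in replicate 3. The gelatinase Mmp9, made by neutrophils among other cells, had 28.6, 25.7, 82.5 and 47.8 CPM and was highest in replicate 3.

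Among housekeeping classes, ribosomal proteins ranked 1 by summed TPM, chaperones 8, the respiratory chain 14 and glycolysis 23 of the 30 classes. These sums also follow the number of genes listed, which was 86, 30, 85 and 19. The median TPM per member was 161, 260.3, 47.8 and 42.7 in the same order. By that measure chaperones stood above ribosomal proteins, and the respiratory chain and glycolysis were close. Among 86 ribosomal protein genes 81 were detected, led by Rplp1, Rpl41, Rps2 and Rplp0, the latter at 1744 ± 176 TPM. Rpl26 was listed at 0 in all 4 libraries, as was Eno1 of glycolysis. Every cell uses these genes, and both have near-identical processed copies. The cause of the 0 values was not tested, and the class sums may be too low. Of the cytoskeletal genes Actb stood at 2955 ± 154 TPM, the tubulin Tubb5 at 1693 ± 63.6 TPM and Actg1 at 1547 ± 59.2 TPM, with no member of the class 2-fold apart between libraries. The chaperones were led by Hsp90ab1 (2731 ± 202 TPM), the endoplasmic calcium binder Calr (1119 ± 106 TPM), Hspa8 (1088 ± 255 TPM) and Hspa5 (1011 ± 160.2 TPM). The nuclear-encoded respiratory chain summed to 7789 ± 543 TPM over 85 genes, with Cox8a highest at 896 ± 74.2 TPM. Glycolysis summed to 2082 ± 137 TPM over 19 genes, led by Pkm at 472 ± 32.1 TPM.

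Stromal transcription factors summed to 11939 ± 615 TPM, with 55 of 56 detected. Hoxa11 and Hoxa10, homeobox factors that pattern the uterus and are needed for its stromal response to progesterone, stood at 1354 ± 56.1 TPM and 1330.2 ± 57.8 TPM. Their single libraries were close, with 1055, 985, 1119 and 1045 CPM for Hoxa10. Osr2 (831 ± 93.4 TPM), Hoxd10 (704 ± 58.8 TPM) and Hand2, a progesterone-induced factor of the stroma (571 ± 64.3 TPM), followed. The progesterone receptor gene Pgr stood at 329 ± 43.7 TPM and the orphan receptor Nr2f2, or COUP-TFII, at 260.2 ± 12.5 TPM. The oestrogen receptor gene Esr1 stood at 131 ± 20.8 TPM, with 338, 443, 480.3 and 463 CPM in the single libraries. The nuclear receptor class also listed Pgrmc1, a membrane-associated progesterone receptor component that is not a nuclear receptor. Pgrmc1 was the most abundant member at 743 ± 34.3 TPM and held 22.6% of the class.

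Among 36 receptor tyrosine kinases 34 were detected. Pdgfra, the platelet-derived growth factor receptor that marks fibroblasts, led with 378 ± 36.9 TPM, followed by Axl (272 ± 33.0 TPM), the collagen receptor Ddr2 (246 ± 18.1 TPM) and Pdgfrb (193 ± 39.6 TPM). The EGF family ligands were the class of lowest sum, and 7 of 11 were detected, near the share of 14555 of 23420 over all symbols. Nrg2, a neuregulin, had 25.1 ± 3.77 TPM, the heparin-binding ligand Hbegf 18.0 ± 7.59 TPM, Tgfa 13.5 ± 4.64 TPM and Nrg4 6.84 ± 2.05 TPM. Each of these 4 stood below the median of 28.8 TPM over all detected genes.

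Secreted signals were led by the chemokine Cxcl14 (1659 ± 678 TPM), the WNT inhibitor Sfrp2 (1264 ± 86.3 TPM), the growth factor Igf1 (654 ± 80.8 TPM) and the heparin-binding factor Mdk (588 ± 82.1 TPM). Sfrp2 and Igf1 were even, with 1416, 1591, 1807 and 1436 CPM for Igf1. Cxcl14 was not, with 447, 556, 804 and 1119.7 CPM and its highest value in replicate 4. IGF-binding proteins summed to 9251 ± 576 TPM, of which Igfbp4, Igfbp7 and Igfbp5 (1171 ± 179.6 TPM) held 84.2%. Igfbp3, the main carrier of insulin-like growth factors in blood, had 393, 371, 124 and 171 CPM, higher in replicates 1 and 2 than in replicates 3 and 4.

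Decidualization genes were detected in part, with 31 of 38 at a mean of at least 1 CPM. Hoxa10, Hand2, the factor Cebpb (426 ± 147 TPM) and the cadherin Cdh11 (414 ± 44.0 TPM) were the most abundant. Prl8a2, a prolactin-family product of the mature decidua, had no read in any library. Wnt4, which is needed for decidualization, had 43.4, 58.6, 146 and 218 CPM, higher in replicates 3 and 4 than in 1 and 2. Ptgs2, or cyclooxygenase 2, had 84.9, 42.9, 162 and 79.8 CPM with its highest value in replicate 3. Lif, the cytokine of implantation, had 16.6, 6.25, 5.99 and 11.1 CPM with its highest value in replicate 1.

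Genes of antigen presentation and immunity were among the abundant transcripts. After B2m, the class I heavy chain genes H2-K1 and H2-D1 stood at 1362 ± 266 TPM and 747 ± 129 TPM. The interferon-inducible membrane proteins Ifitm3 and Ifitm2, which have close relatives, stood at 2160.4 ± 149 TPM and 2134 ± 198 TPM. Complement genes were led by C1qb (936 ± 339 TPM) and C1qa (930.2 ± 261 TPM), which macrophages make. The thrombin receptor F2r (781 ± 119.6 TPM) and C1s (689 ± 53.0 TPM) came next. Lyz2 of macrophages and granulocytes stood at 3262 ± 1548 TPM and Cd74, the invariant chain of class II molecules, at 1421 ± 324 TPM. Igj, the joining chain of secreted antibodies and a product of plasma cells, stood at 1085 ± 758 TPM.

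Transcripts of other states were read in the same way. In the immediate early class the factors Fos, Jund and Jun stood at 2255 ± 738 TPM, 2133 ± 346 TPM and 1793 ± 338 TPM. The small GTPase Rhob of that class stood at 2312 ± 372 TPM, and Fos ranked 21 among all genes. Cell cycle genes summed to 1707 ± 132 TPM, led by the inhibitor Cdkn1c (183 ± 71.9 TPM) and the replication clamp Pcna (169.5 ± 10.7 TPM). Only 17 of 67 histone genes of the replication clusters were detected. Their messages mostly lack the poly(A) tail on which these libraries were selected, and the part of this in the count was not tested. Scd2, a fatty acid desaturase, held 51.5% of the cholesterol and fatty acid synthesis class at 1029.7 ± 155 TPM. In the list of imprinted genes the highest were Dcn, which held 35.3% of its TPM, and Gnas (199.9 ± 9.87 TPM). Counts per gene do not tell the parental alleles apart, so imprinting in these cells was not read.

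The 4 libraries resembled each other closely over genes. For pairs of libraries the median difference per gene was 0.17 to 0.21 on the log2 scale, and 177 (replicates 1 and 2) to 473 (replicates 2 and 3) of 12406 genes with a mean of at least 5 CPM were 2-fold or more apart. The spread was still larger than counting error. By a chi-square test of each gene's counts against the library totals, 10766 of 14612 genes (73.7%) differed among the 4 libraries at a Benjamini-Hochberg adjusted p under 0.05. If both reads of a pair were counted, halved counts gave 6720 of 13786 genes. The test compares these libraries and not conditions. The common biological coefficient of variation was 0.180.

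Most of this spread was small. The SD over the 4 libraries of log2(CPM + 0.5) had a median of 0.18 and quartiles of 0.12 and 0.28. The highest library was at least 2-fold over the lowest for 1093 of 12406 genes (8.81%), at least 4-fold for 99 and at least 10-fold for 10. Low genes varied more, with 19.3% of those between 5 and 20 CPM 2-fold apart, against 4.97% between 20 and 100 CPM and 3.43% at 100 CPM or more. Counting error alone gives an SD of about 0.20 at 5 CPM. Without replicate 3 the number of genes 2-fold apart fell to 610.

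**Figure D3:**
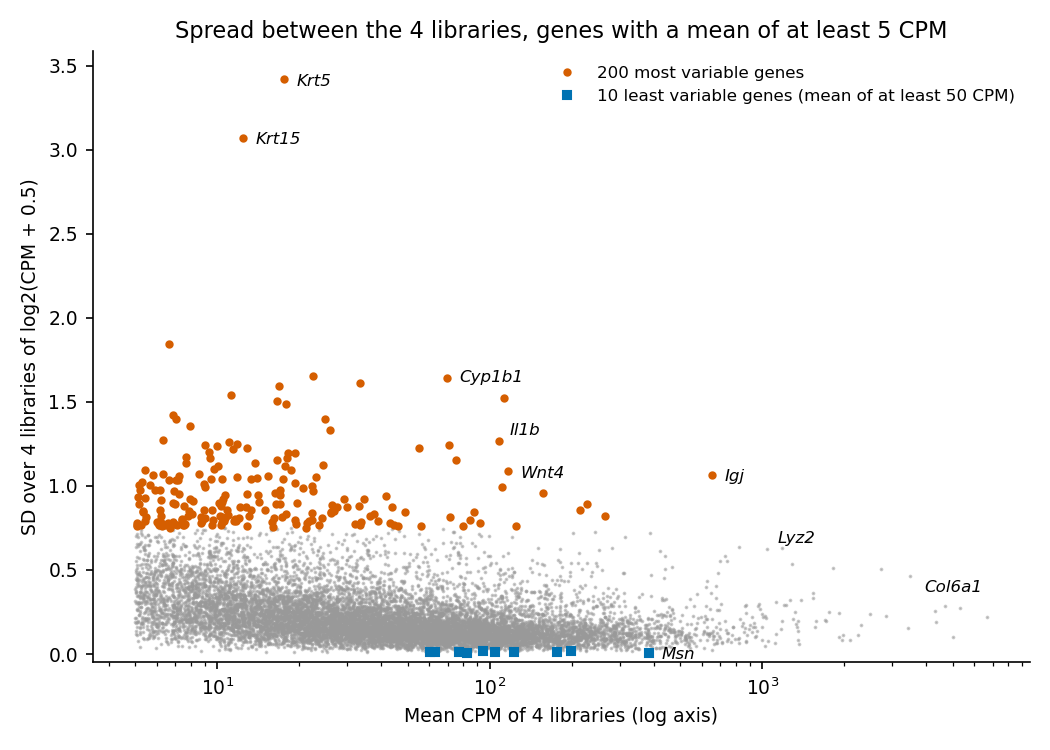
SD over the 4 libraries of log2(CPM + 0.5) against the mean CPM on a log axis, 1 point per gene for 12406 genes, with the 200 most variable and the 10 least variable genes in colour. Krt5 and Krt15 stand above all other genes, and Igj is the most abundant gene among the 200 most variable.

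The genes that varied most were chosen by these same values and are given as a description. Krt5 and Krt15, keratins of the basal layer of stratified squamous epithelium, led with 0.590, 0, 0 and 69.5 CPM and 0.393, 0.212, 0.0778 and 49.2 CPM. Fat2, an atypical cadherin of the same kind of epithelium, had 1.08, 1.06, 2.10 and 22.4 CPM. All 3 were high in replicate 4 only and at or near 0 in the other libraries. Of 19 genes of stratified squamous epithelium, a list made after these values were seen, the summed TPM was 76.2, 64.7, 71.5 and 562. Krt13 and Sprr1a from that list had 0.197, 0.741, 0.545 and 17.8 CPM and 1.47, 0.529, 1.94 and 14.8 CPM. The part of any such cells in the other values of replicate 4 was not tested.

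A second set was high in replicate 3. Trem1, a receptor that amplifies inflammatory signals, had 8.84, 3.71, 64.3 and 12.7 CPM. The neutrophil chemokine receptor Cxcr2 had 6.19, 3.07, 47.1 and 10.7 CPM and the alarmin S100a9 4.13, 2.01, 29.6 and 9.14. Il1b had 57.1, 32.0, 260.4 and 82.2 CPM, its decoy receptor Il1r2 6.49, 3.92, 30.9 and 5.80, the granulocyte growth factor receptor Csf3r 30.7, 18.0, 136 and 35.1 and Slfn4 8.45, 8.58, 58.1 and 28.7. For each of these 7 genes replicate 3 was highest, and replicate 2 was the lowest for all but Slfn4. Of 23 promoters of the neutrophil and inflammatory myeloid list, to which these genes belong, 3 (13.04%) held GGGCGG and 6 (26.1%) held TATAAA, against 43.6% and 3.35% of all 16375 promoters, and the Il1b window above shows 1 of these.

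The other genes among the 25 most variable were high in differing libraries. Cyp1b1, an oxidase of oestrogens and of aryl hydrocarbon receptor ligands, had 67.1, 32.6, 168 and 10.9 CPM, lowest in replicate 4 and highest in replicate 3. Lrp2, the endocytic receptor megalin of epithelia, had 219, 153, 59.0 and 20.3 CPM. The imprinted RNA H19 had 8.16, 11.5, 69.9 and 10.03 CPM and was high in replicate 3 only. Rgs5 of pericytes had 91.4, 140.0, 26.5 and 25.3 CPM. Shisa3 had 32.3, 20.1, 11.4 and 2.45 CPM and overlaps Atp8a1 on the other strand. Il33, a cytokine of epithelial and stromal nuclei, had 5.01, 3.81, 4.51 and 26.5 CPM and the retinaldehyde dehydrogenase Aldh1a3 5.01, 3.07, 9.96 and 26.1, both highest in replicate 4. Tpsb2, a mast cell tryptase, had 12.8, 4.98, 29.4 and 4.35 CPM and the granzyme Gzmc 11.6, 3.39, 18.3 and 2.68, and both were high in replicates 1 and 3. Chst4, Pla2g10, Tmem200c, Crabp1 and Erdr1 complete the 25, and Erdr1 had 69.5, 4.98, 17.1 and 41.6 CPM. The gene at the 25th place had an SD of 1.23 and the next 1.22, so the limit of the list marks no gap.

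**Figure D4:**
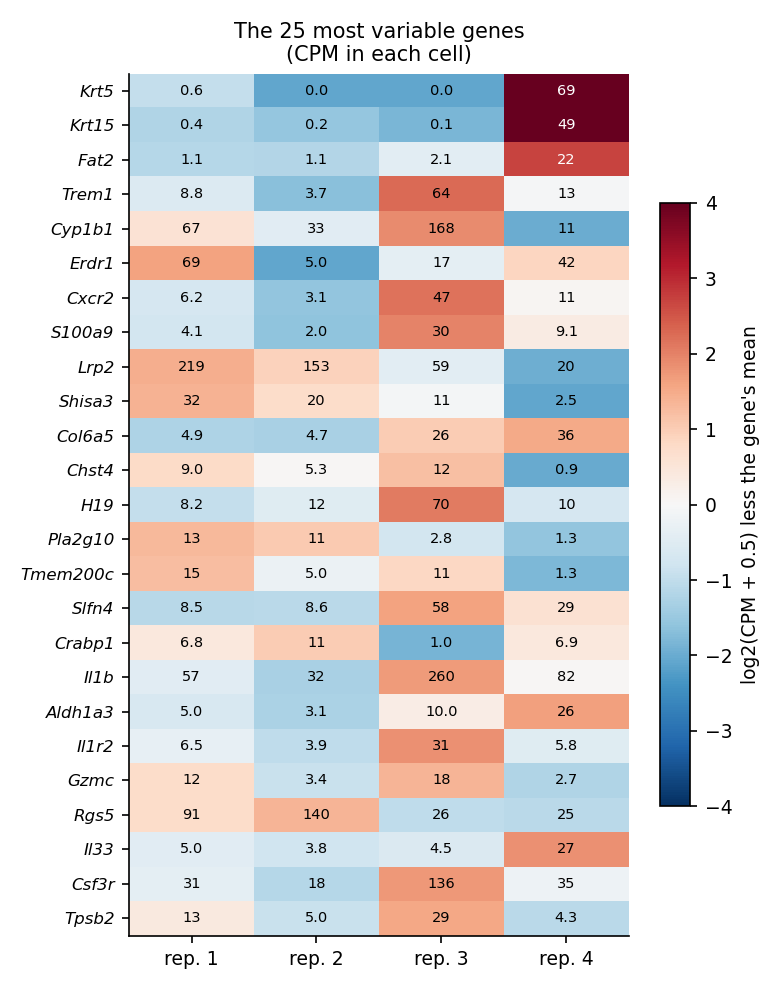
The 25 genes with the largest SD of log2(CPM + 0.5) over the 4 libraries, coloured by the difference from the gene's own mean and with the CPM printed in each cell. Krt5, Krt15 and Fat2 are high in replicate 4 only, and Trem1, Cxcr2, S100a9, Slfn4, Il1b, Il1r2 and Csf3r are highest in replicate 3.

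Of the 12406 genes with a mean of at least 5 CPM, 30.0% were highest in replicate 1, 28.1% in replicate 2, 22.8% in replicate 3 and 19.1% in replicate 4. The shares that were lowest there were 25.2%, 23.1%, 26.8% and 24.8%. List counts below are over members with a mean of at least 5 CPM. Against this background whole marker lists moved together from library to library. All 19 endothelial markers were highest in replicate 1 or 2, and 16 of 19 were at least 2-fold apart, against 8.81% of all genes. Their summed TPM was 1018, 1047, 638 and 562. Cdh5, the cadherin of endothelial junctions, had 234, 267, 152 and 131 CPM, the receptor Robo4 14.3, 17.5, 5.68 and 2.90 and the angiopoietin receptor Tek 18.2, 18.0, 5.37 and 6.91. The pericyte markers did the same in 8 of 8, with 697, 908, 433 and 544 summed TPM, of which Anpep held 66.5%. So did the smooth muscle markers in 16 of 16, with 3655, 3349, 1936 and 2508 summed TPM, and Myh11, the smooth muscle myosin, had 331, 339, 118 and 189 CPM. Vessel wall and muscle transcripts were thus higher in replicates 1 and 2 than in replicates 3 and 4 in each of the 3 lists.

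Myeloid transcripts followed another order. Of 24 immune markers 15 were highest in replicate 3 and 14 lowest in replicate 2, where 22.8% and 23.1% of all genes were, and the summed TPM was 9086, 6402, 13241 and 7555. Of 22 macrophage and lysosome genes 20 were highest in replicate 3, with Lyz2 at 924, 637, 1762 and 833 CPM, Cd68 at 61.8, 41.2, 133 and 75.9 and Gpnmb at 39.8, 59.6, 141 and 77.9. Many of these, such as Apoe, Psap and Ctsb, are also made by other cells. Of 14 neutrophil and inflammatory myeloid genes 12 were highest in replicate 3. The macrophage and neutrophil lists were made after values were seen, and the neutrophil list holds genes already described as highest in replicate 3. Their counts are therefore a description and are not read against the share of all genes. Mesothelial markers were highest there in 6 of 8, with Upk3b at 39.3, 22.6, 71.6 and 22.2 CPM and Msln at 5.31, 2.86, 16.5 and 3.68 CPM. Wt1 held 36.8% of the summed TPM of that list, which also includes Krt5, a keratin high in replicate 4. The myeloid and mesothelial marker levels and the other values of replicate 3 moved together, and their part in one another was not tested.

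Epithelial and plasma cell genes differed in yet other libraries. Of 24 epithelial markers 16 were highest in replicate 4 and 15 lowest in replicate 3, with a summed TPM of 3846, 3622, 2570.5 and 4511. The tight junction gene Cldn3, which overlaps Wbscr25, had 299.6, 285, 198 and 265 CPM and Krt8 193, 137, 117 and 198. Foxa2, a factor of uterine glands, had 8.45, 16.1, 4.05 and 3.90 CPM and was highest in replicate 2. Igj had 515, 1264, 629 and 209 CPM and the plasma cell genes Mzb1 and Derl3 12.7, 32.9, 23.6 and 5.46 CPM and 7.76, 17.8, 12.9 and 3.01 CPM, all 3 highest in replicate 2 and lowest in replicate 4. The summed TPM of the plasma cell list was 2442, 4169, 2792 and 2048 and that of the mast cell list 574, 485, 593 and 382. In the mast cell list 1 transcription factor gene held 51.8% of the TPM, so that sum does not follow mast cell products alone. The summed TPM of the granzyme and uterine NK list was 397, 455, 476 and 451 and that of the neutrophil list 952, 554, 2191 and 1096. Igj was the most abundant gene with an SD above 1.

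Classes of cell state also differed by library. Of 28 immediate early genes 26 were lowest in replicate 2, where 23.1% of all genes were lowest, and 10 of 28 were at least 2-fold apart. Fos had 1780.2, 755, 1487 and 1126 CPM, Fosb 1165, 437, 1015 and 684, Atf3 233, 80.6, 155 and 132 and the orphan receptor Nr4a1 364, 135, 291 and 219. The heat shock genes Hspa1a and Hspa1b, which are near-identical, had 422, 146, 298 and 390.1 CPM and 568, 239.8, 389 and 561 CPM and were lowest in the same library. Ribosomal protein genes were highest in replicate 1 for 56 of 75 and lowest in replicate 3 for 56 of 75, though only 2 of 75 were 2-fold apart. Cell cycle genes were highest in replicate 2 or 4 for 38 of 47, with the mitotic Cenpf at 19.2, 42.4, 30.6 and 49.9 CPM. Interferon-stimulated genes were highest in replicate 4 for 15 of 29, with Ifit3 at 11.4, 12.4, 21.9 and 28.3 CPM.

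**Figure D5:**
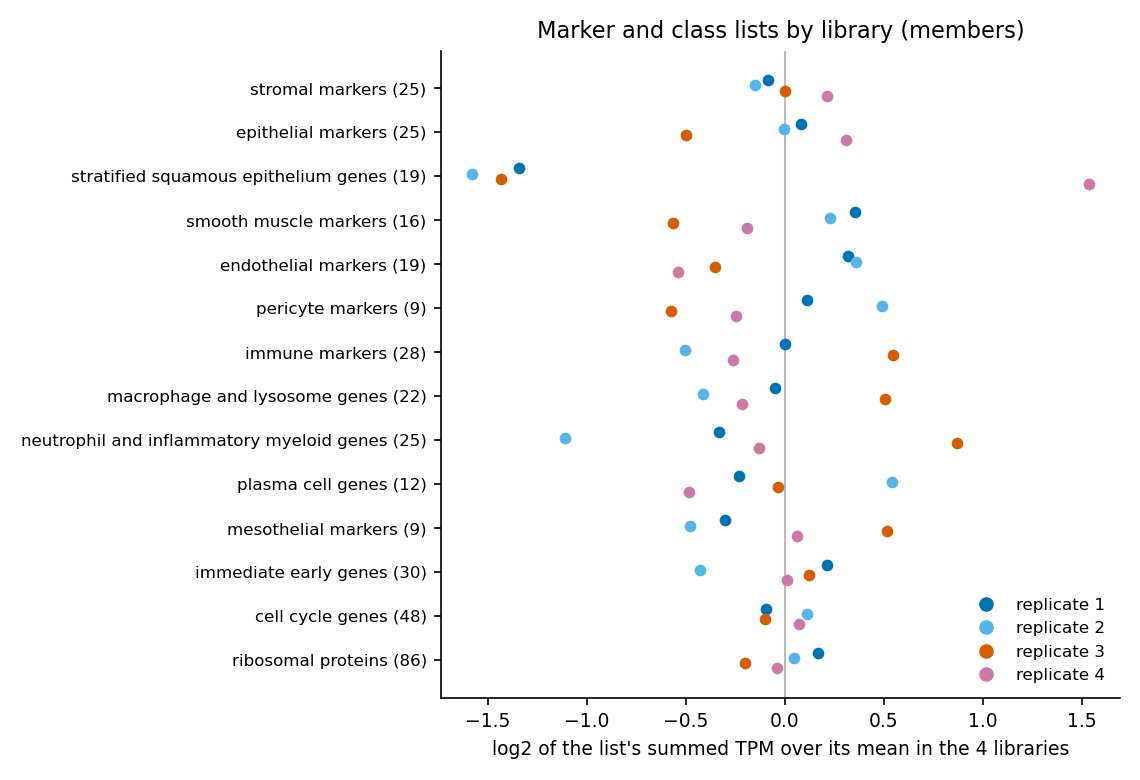
log2 of the summed TPM of 14 lists in each library over the list's mean in the 4 libraries, with the number of members in brackets. Replicates 1 and 2 lie to the right for smooth muscle, endothelial and pericyte markers, replicate 3 for immune, macrophage, neutrophil and mesothelial lists, and replicate 4 for stratified squamous epithelium.

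Of the stromal markers 2 of 25 were at least 2-fold apart (8%), near the 8.81% of all genes, with a median SD of 0.20 against 0.18 over all genes. Their summed TPM was highest in replicate 4, at 21704, 20754, 23038 and 26704, and Col6a1 alone held 19.2% of it. Of the 25 members 10 were highest in replicate 4, 7 in replicate 3, 6 in replicate 1 and 2 in replicate 2. The class of steroid and other nuclear receptors, with Pgrmc1 included, summed to 3314, 3247, 3319.9 and 3261 TPM. Its ratio of the highest to the lowest library (1.02) was the smallest of the 30 classes. Secreted growth factors and cytokines (25 of 57) and collagens (14 of 34) were 2-fold apart more often than all genes. Ccl2, a monocyte chemokine, had 18.1, 2.86, 6.92 and 7.80 CPM and was highest in replicate 1. Angptl7, an angiopoietin-like secreted factor outside the lists, had 128, 95.8, 55.6 and 20.4 CPM.

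The 4 libraries labelled Erbb3d/d did not choose these genes and give a separate measure of spread. Of the 50 genes that varied most in Erbb3f/f, 48 (96%) were also at least 2-fold apart among the Erbb3d/d libraries, where 12.8% of all genes were, and of the 200 most variable 162 (81%) were. Low genes varied more in both genotypes, so the share was also taken within levels. It was 115 of 143 genes between 5 and 20 CPM, where 25.7% of all genes were 2-fold apart in Erbb3d/d, 37 of 47 between 20 and 100 CPM (8.08% of all) and 10 of 10 at 100 CPM or more (6.26% of all). Cyp1b1 had an SD of 2.21 in Erbb3d/d against 1.64 in Erbb3f/f, Lrp2 1.95 against 1.52, Igj 1.23 against 1.07 and Wnt4 1.02 against 1.09. H19 had 0.43 against 1.40 and Lyz2 0.16 against 0.62, so their spread was larger in Erbb3f/f. None of these differences in spread was tested.

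At the other end, 10 genes with a mean of at least 50 CPM were almost equal in the 4 libraries. Msn had 382, 381, 384 and 385 CPM, an SD of 0.0065 on the log2 scale where counting error alone gives about 0.023. Wdr33, a subunit of the messenger 3′ end processing complex, had 81.7, 82.6, 82.3 and 82.5 CPM and the GTPase-activating protein gene Dab2ip 175, 177, 174 and 177. Fbxw2, Adipor1, Pigq, Epc2, Tagap1, Ubr3 and Ankfy1 make up the rest. They were chosen by this value and are given as a description. The others had fewer reads than Msn and so a larger counting error, and their SDs of at most 0.017 also lay below it. In Erbb3d/d the SD of Msn was 0.06 and that of Wdr33 0.04, against a median of 0.20 over all genes.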

How the data were processed

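Polyadenylated RNA of 4 Erbb3f/f libraries (and 4 Erbb3d/d libraries for spread only) was read as non-directional pairs of 150 bp, per the labels. The authors deposited raw counts per gene symbol, 1 table per library, with 5 closing lines that name no gene and hold 70.9% to 72.3% of entries; these lines were left out. The submitters' processing notes name HISAT2, SAMtools, HTSeq and StringTie and the builds mm10 and GRCm38, without versions. The annotation, the strand setting and the counting of single reads or pairs are not given in the sources used here. Reads with more than 1 alignment stand in 1 of the closing lines (3.49% to 4.05% of entries), so genes with near-identical copies may be undercounted.

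CPM was computed on the total of reads in genes, and TPM from merged exon lengths of GENCODE vM21 on GRCm38, with 98.1% of symbols matched. Group and replicate came from the titles. Counts were tested for homogeneity over libraries by chi-square (3 degrees of freedom, mean count of at least 10, Benjamini-Hochberg), which covers counting error only. The coefficient of variation is the square root of the common dispersion of edgeR 4.0.16 in R 4.3.3 (TMM, filterByExpr, intercept only). Spread is the SD of log2(CPM + 0.5) at a mean of at least 5 CPM. Scripts ran in Python 3.11.15 with pandas 2.3.3 and scipy 1.17.1, and were tested on simulated data. Alternatives were TMM or DESeq2 1.42.0 size factors, longest transcripts, other filters and pseudocounts, halved counts and each library left out.

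Named genes are Erbb3, the 20 highest by CPM and by TPM, members of each list highest in TPM or largest in SD, the 25 most and 10 least variable genes, and defining markers at 0. Egfr, Erbb2, Erbb4, Esr1, Hoxa10 and other genes outside that rule, such as Angptl7, and 6 lists (squamous, neutrophil, macrophage, plasma, mast and NK cell genes) were chosen after their values were seen. The libraries, members and lists were chosen with earlier results of these data known. The count of genes 2-fold apart in Erbb3d/d was also chosen after values were seen. Of the named genes, 16 overlap an exon of an opposite gene and are uncertain for that reason: Alas2, Aspn, Cebpb, Cldn3, Ctsb, Dab2ip, Ddr2, Erbb2, Fn1, Gnas, Igfbp7, Nr2f2, Nrg4, Rps2, Shisa3 and Xist.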

Additional observations from a re-analysis of the deposited data

Results flagged for a closer look

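Of 179 genes named above, 47 list sums and 15 library measures, each with 4 values, 16 had 1 library set apart from the other 3 by more than Dixon's 95% limit. Chance sets apart about 1 in 20 such groups, or 12.05 of these, and the most variable genes were chosen for their spread, so the number is not read as a result. Replicate 4 was the high one in 8, replicate 3 the high one in 6 and replicate 2 the low one in 2.

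In replicate 4, the squamous epithelium genes Krt5 (69.5 CPM, next highest library 0.590), Krt15 (49.2), Fat2 (22.4), Krt13 (17.8) and Sprr1a (14.8) stood apart, as did the summed TPM of that list at 562. The same library stood apart for Il33 (26.5 CPM) and Col6a3 (2921 CPM). In replicate 3, the myeloid genes Trem1 (64.3 CPM), Il1r2 (30.9 CPM) and Csf3r (136 CPM) stood apart, with the imprinted RNA H19 (69.9 CPM), the collagen gene Col23a1 (74.0 CPM) and Pigq (124 CPM). For Pigq, 1 of the 10 least variable genes, the gap is from 123 to 124 CPM. In replicate 2, the low values were those of Jund (633 CPM) and Osr2 (590 CPM).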

How the results depend on the processing

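The 20 most abundant genes by TPM shared 17 with a ranking by longest transcript, 19 or 20 without each library in turn, 20 under TMM or DESeq2 size factors, and 10 with a ranking by CPM. The 10 highest classes were the same 10 under each alternative run. Genes varying beyond counting error numbered 6720 with counts halved, 10736 to 10745 with other library sizes and 8498 to 9573 without each library in turn. The coefficient of variation ranged from 0.169 to 0.200. Genes at least 2-fold apart numbered 2256 at a mean CPM of at least 1, 399 at 20, 790 with a pseudocount of 2 and 610 to 785 without each library in turn, where 3 values have a smaller range than 4. Of the 50 most variable genes 19 were shared when the mean CPM was at least 1, 13 at 20, 35 by squared coefficient of variation and 25 to 42 without each library in turn (28 without replicate 3, 25 without replicate 4). The membership of the most variable genes thus depends on the filter and on these libraries. Sums of 17 of 42 lists moved by more than their SD with the longest transcript, and none did without a library. No paired analysis was possible because no test compares the genotypes, whose spreads are given side by side without a test. At the depth of these libraries counting error alone gives an SD of about 0.20 at 5 CPM, so smaller spread was not detectable at that level.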
